A study of Mus musculus with 16 samples.

Results

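The 10 genes described here form the core circadian clock, and the question was how open chromatin at them compared between male and female liver and between 2 mouse strains. They are Arntl, Clock, Npas2, Per1, Per2, Per3, Cry1, Cry2, Nr1d1 and Nr1d2. DNase I hypersensitive sites (DHS), short stretches of open chromatin where the enzyme DNase I cuts readily, were assigned to a gene when they overlapped the gene body or the 20 kb on either side of it. Joining the peaks of all lists that overlapped by at least 1 bp gave 51482 DHS regions, of which 63 lay at the 10 genes. A region is named by its gene and a number that runs from the 5′ to the 3′ end of that gene.

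Liver nuclei came from C57BL/6J (B6) mice, the strain of the mouse reference genome, and from CAST/EiJ (CAST) mice, an inbred strain derived from wild mice. The 4 groups were male B6, female B6, male CAST and female CAST. All mice were 8 weeks old and received no treatment that the labels give, and 32 units of DNase I were used to digest the nuclei. There were 4 libraries in each group, 16 in all, but peaks were called on the pooled libraries of a group, so that each group was 1 peak list without replicate error and no test between groups could be run. All livers were taken within a single short interval of the morning, so the lists hold 1 time of day. Whether the groups were at the same phase of the clock at that time was not measured.

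The clock is a feedback loop of transcription. BMAL1, the product of Arntl, pairs with CLOCK or its paralog NPAS2 and activates genes through E-boxes, among them the Per and Cry genes, whose protein products return to the nucleus and repress BMAL1 and CLOCK. The same activators drive Nr1d1 and Nr1d2, which encode the nuclear receptors REV-ERBα and REV-ERBβ, repressors that bind ROR elements and act on Arntl and Cry1, and a further class of factors (DBP, TEF, HLF and the repressor NFIL3) acts through D-boxes in the Per genes. In liver this loop sets daily rhythms of metabolic genes.

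Of 6 hepatocyte marker genes, 5 had a DHS at their promoter in the lists of males and 4 in those of females, while 0 of 5 marker genes of other tissues and 0 of 4 Kupffer cell markers had one. Of the 4 sinusoidal endothelial markers 4 were found in male B6 and 1 in female CAST, with 2 in each of the other lists, and of 3 stellate cell markers 1 was found in each list but female CAST, which had 0. The part of such cells in the results was not tested. The B6 lists held 38751 peaks in males and 26271 in females, and the CAST lists 39562 and 24888. The genome-wide background, in fragments covering a position, was 15.4, 13.9, 14.3 and 7.94 in that order, so the female CAST list was the shallowest.

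The sequences of 6 windows that held more than 1 clock motif are given first, because these are the letters that clock factors are known to read. They are the B6 reference sequence (mm9), on the strand of the gene, and capitals mark the E-boxes, E-prime box, D-boxes and ROR elements. Nr1d1 region 8, which lies inside Thra and had an E-box and an E-prime box 80 bp apart, is not printed. The short motif TGACG, also searched, lies once each in the Per1 and Nr1d2 windows and is left in lower case. The promoter regions of Per1, Cry1 and Nr1d2 and an intronic region of Nr1d1 held E-boxes (CACGTG) or an E-prime box (CACGTT, which reads as AACGTG on the other strand). The Nr1d2 window lies in the intronic part of its promoter region. The promoter of Per3 held 2 D-boxes (TTATGTAA), and both Nr1d regions held a D-box on the opposite strand. An intronic region of Cry1 that was found in males held 2 ROR elements (TAGGTCA), 1 on each strand.
Per1 region 3, plus strand, upstream of the gene, E-boxes, chr11:68908372-68908599: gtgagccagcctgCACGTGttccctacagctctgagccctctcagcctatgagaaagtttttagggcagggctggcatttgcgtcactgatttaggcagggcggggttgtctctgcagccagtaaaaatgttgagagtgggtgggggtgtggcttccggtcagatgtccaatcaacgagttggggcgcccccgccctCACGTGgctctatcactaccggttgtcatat
Cry1 region 2, minus strand, upstream of the gene, E-prime box and E-box, chr10:84647829-84647903: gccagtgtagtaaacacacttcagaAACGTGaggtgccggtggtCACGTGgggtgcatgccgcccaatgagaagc
Nr1d1 region 6, minus strand, intron, D-box and E-boxes, chr11:98635148-98635426: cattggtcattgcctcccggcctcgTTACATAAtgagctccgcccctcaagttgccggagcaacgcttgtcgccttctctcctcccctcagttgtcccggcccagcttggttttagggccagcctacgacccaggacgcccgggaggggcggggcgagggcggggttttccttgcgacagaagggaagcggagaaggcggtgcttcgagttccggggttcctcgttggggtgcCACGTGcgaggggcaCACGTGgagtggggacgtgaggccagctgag
Nr1d2 region 1, minus strand, intron, D-box and E-boxes, chr14:19071014-19071148: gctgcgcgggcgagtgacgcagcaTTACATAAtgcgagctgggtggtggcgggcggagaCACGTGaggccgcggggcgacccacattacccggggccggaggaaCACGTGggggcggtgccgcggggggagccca
Per3 region 2, minus strand, upstream of the gene, D-boxes, chr4:150418900-150419004: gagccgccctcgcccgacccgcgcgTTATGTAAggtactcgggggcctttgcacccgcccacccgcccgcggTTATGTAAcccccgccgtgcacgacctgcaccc
Cry1 region 3, minus strand, intron, ROR elements, chr10:84624633-84624740: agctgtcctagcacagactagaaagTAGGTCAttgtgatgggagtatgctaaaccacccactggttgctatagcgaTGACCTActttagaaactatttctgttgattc
Start-to-start distances within a window were 184 bp between the E-boxes of Per1, 19 bp between the E-box and the E-prime box of Cry1, 15 bp between the E-boxes of Nr1d1 and 45 bp between those of Nr1d2. The D-boxes of Per3 were 47 bp apart, and the ROR elements of Cry1 were 51 bp apart.

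Open chromatin at the clock genes was found in every group more often than open chromatin elsewhere in these lists. Of the 63 regions, 36 (57.1%, Wilson 95% interval 44.9 to 68.6, which covers counting error only) were in all 4 lists, compared with 35.6% of all regions. The difference was seen at promoters and outside them. At promoters of any gene, 20 of 22 clock gene regions (90.9%) were in all 4 lists, against 68.3% of all promoter regions, and outside promoters 16 of 41 (39.0%) were, against 24.3%. A single list held 18 regions (28.6%), against 35.2% of all regions, and 10 of these 18 were in male B6. How the single-list regions of the whole series divided between the lists was not computed, so this count has no comparison. Regions of a single list were weak, with a median fold enrichment at the summit (column 7 of the lists, the ratio of summit reads to background) of 2.32 against 4.99 for regions in all 4 lists, close to the 2.43 and 4.93 over all regions. Lists cut to equal size by their −log10 q left 49 regions, of which 34 (69.4%) were in all 4 lists, against 47.9% of all regions under that setting.

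**Figure D1:**
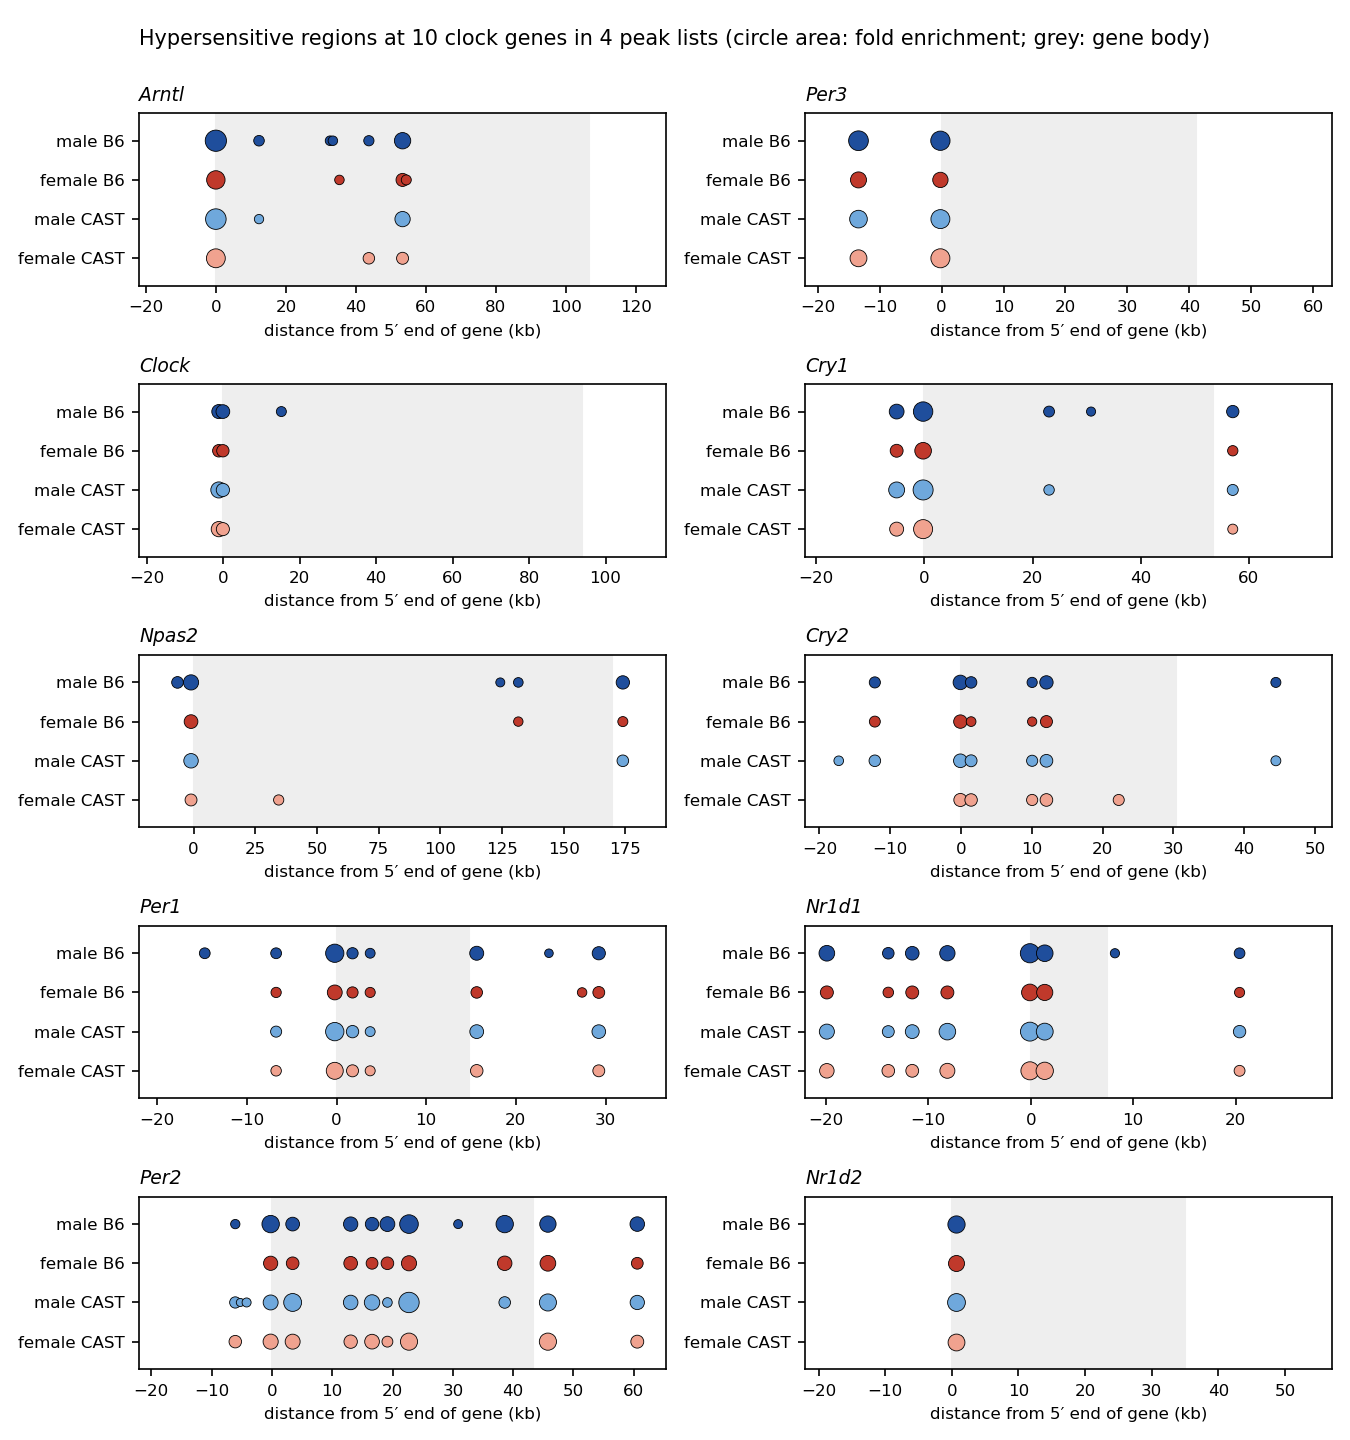
DHS regions at the 10 clock genes, with distance from the 5′ end of each gene in kb on the horizontal axis, 1 row for each peak list and circle area in proportion to fold enrichment at the summit; the grey band is the gene body. Regions at the 5′ end were in all 4 lists for each gene, and Per2 had 13 regions whereas Nr1d2 had 1.

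The genes differed in how many regions they had. Per2 had 13, more than 98% of protein-coding genes, followed by Per1 with 9, Arntl, Cry2 and Nr1d1 with 8 each, Npas2 with 6, Cry1 with 5, Clock with 3, Per3 with 2 and Nr1d2 with 1. The longest gene was not the richest, since Npas2 spans 169504 bp and Nr1d1, with 8 regions, spans 7402 bp. Within introns there were 26 regions, 24 lay upstream and 11 downstream. Of the 63, 9 lay within 1 kb of a start of another gene, such as Vamp3 upstream of Per3 or Hes6 downstream of Per2, and these cannot be ascribed to the clock gene. A further 6 had their summit inside another gene, namely Cry2 regions 5, 6 and 7 in D930015M05Rik, Cry2 region 8 in Mapk8ip1, and Nr1d1 regions 7 and 8 in Thra. Without the 9 at other starts, a setting chosen after the data were seen, 29 of 54 regions (53.7%) were in all 4 lists.

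Each clock gene had a promoter region in all 4 lists. Taking the promoter region of each gene with the highest mean over the lists, fold enrichment was between 3.65 and 11.6, and the Arntl, Cry1 and Nr1d1 promoters were among the 4 highest in each list, while those of Cry2 and Npas2 were among the 3 lowest. Over all 13 regions at starts of the clock genes the lowest value was 2.43, at Cry2 region 4 in female B6, and the median fold enrichment was 7.61 and 5.16 in B6 males and females and 6.62 and 5.98 in CAST males and females. The medians over promoter regions of all genes were 5.01, 4.08, 5.25 and 4.91. The clock gene median was the higher one in each of the 4 lists.

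**Figure D2:**
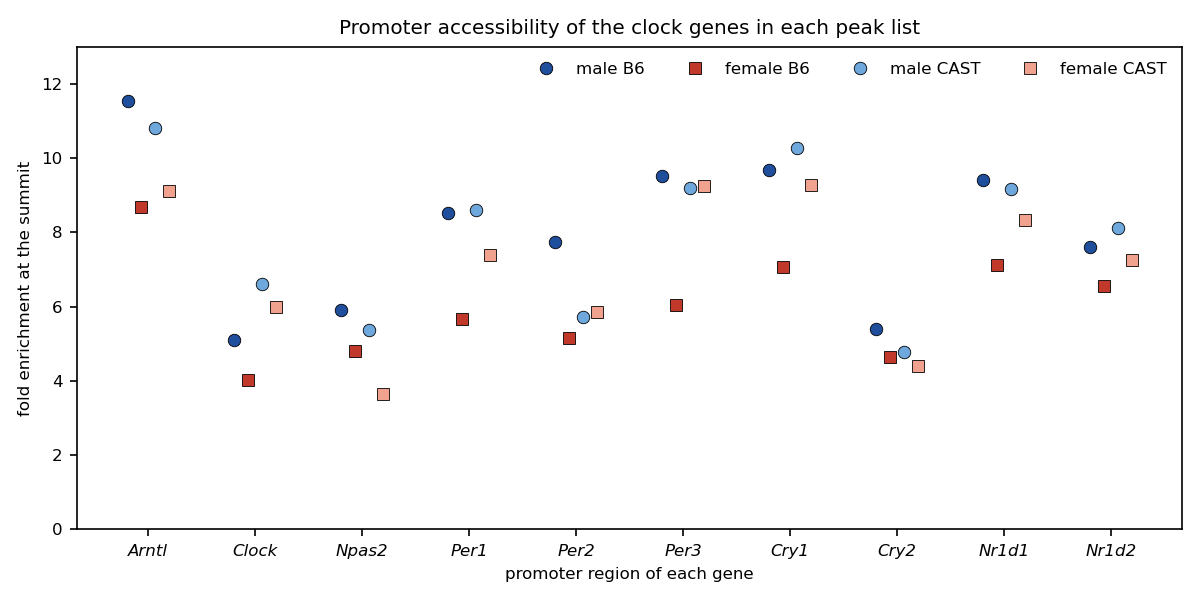
Fold enrichment at the summit (vertical axis, linear, from 0) of the promoter region of each clock gene in the 4 peak lists, 1 point for each list and no error bars because each list is a single pooled measurement. The Arntl promoter lay between 8.68 and 11.6 and the Cry2 promoter between 4.40 and 5.40. For Clock the points are those of region 1, whose summit lay at −1175 bp, and not of region 2 at −124 bp.

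Among the activators, Arntl had the most open promoter. The values given for a region are fold enrichments at its summit, and where 4 stand together without their lists, the order is male B6, female B6, male CAST, female CAST. Arntl region 1 (chr7:120350363-120351521, with its male B6 summit at −95 bp from the 5′ end of the gene, upstream) had a fold enrichment of 11.6 and 8.68 in B6 males and females and 10.8 and 9.11 in CAST males and females. Both female values were below both male values, but relative to the median of all regions shared by the lists compared, the male to female ratio was 1.01 in B6 and 0.997 in CAST. The next Arntl region in all 4 lists, region 7, lay in an intron 53309 bp from the 5′ end and had 6.85, 4.38, 5.98 and 3.69 in the same order. Between these, region 2 (chr7:120363049-120363547), also intronic, was in both male lists, at 2.87 for B6 and 2.23 for CAST, but neither female list. The remaining 5 Arntl regions were intronic and were found in 1 or 2 lists, at 2.32 to 3.40.

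Clock, the partner of BMAL1, had 2 promoter regions in all 4 lists. The upper one, region 1 (chr5:76734807-76735710), had 5.11 and 4.01 in B6 males and females and 6.62 and 5.98 in CAST males and females. Both CAST values were above both B6 values there, and the summit lay at −1175 bp from the 5′ end. Region 2, with its summit nearer the start at −124 bp, did not show this order. It had 4.83 and 3.92 in B6 males and females and 4.49 and 4.40 in CAST males and females. Its centred B6 to CAST ratio was 1.13 in males and 1.06 in females. Region 3, the sole DHS in the Clock gene body away from the promoter, was in male B6 alone at 2.57. At Npas2, which can take the place of Clock, the promoter region 2 (chr1:39249195-39250107) had 5.92, 4.81, 5.36 and 3.65 in the same order of lists. Female CAST was the lowest, with 35 reads at the summit. A ROR element lay 131 bp from the male B6 summit of this region. The strongest Npas2 region outside a promoter, region 1, lay upstream and was in male B6 alone at 3.49. Npas2 region 5 (chr1:39382116-39383270), over a coding exon, was in both B6 lists, at 2.38 in males and 2.28 in females, and in neither CAST list. It was the 1 region of the 63 (1.59%) with this pattern, against 3.32% of all regions.

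The Per genes encode the repressors whose levels track the cycle. At Per1, the promoter region 3 (chr11:68908112-68908816) had 8.53 and 5.67 in B6 males and females and 8.61 and 7.39 in CAST males and females, and the summits of the 4 lists lay within 10 bp of each other. Its E-boxes lay at 50 bp and −134 bp from the male B6 summit, where negative distances from a summit run toward lower coordinates. Region 5 of Per1, at another annotated start of the gene, had a low and even fold enrichment, at 2.49, 2.63, 2.53 and 2.58. In reads it was not low, with 218, 121, 221 and 91 at the summit, against 138, 87, 114 and 35 at the Npas2 promoter. The strongest Per1 region away from a promoter was region 6 (chr11:68923666-68924529), downstream of the gene, with 5.01, 3.42, 4.87 and 4.03. At Per3 there were 2 regions, both in all 4 lists. The promoter region 2 (chr4:150418401-150419443) had 9.51 and 6.03 in B6 males and females and 9.20 and 9.25 in CAST males and females, so that female B6 alone stood apart from the other lists.

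Per2 carried the most regions and, among the 10 genes, the largest strain differences. Its promoter, region 4 (chr1:93355578-93356336), had 7.75 and 5.16 in B6 males and females and 5.72 and 5.85 in CAST males and females, and a D-box lay at −98 bp from the male B6 summit. By the mean over the lists the highest Per2 region was intronic region 9 (chr1:93332794-93333641), with 8.87, 5.87, 10.6 and 7.51 in the same order. Region 12, at the start of Hes6, had 6.84, 6.32, 7.47 and 7.54 and was above region 9 in B6 females, and about level with it in CAST females. In contrast, 2 other intronic regions were higher in B6. Region 8 (chr1:93336452-93336944) had 5.63 in male B6 and 4.08 in female B6, but 2.37 in male CAST and 3.03 in female CAST. Region 11 (chr1:93316649-93317920) had 7.70, 5.36 and 3.43, and no peak in female CAST. The opposite order was seen at intronic region 5 (chr1:93352282-93353461), with 4.82 and 4.10 in B6 and 8.18 and 5.73 in CAST. Upstream, region 1 had 2.23 in male B6 and no peak in female B6, against 3.26 and 4.0 in CAST males and females.

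**Figure D3:**
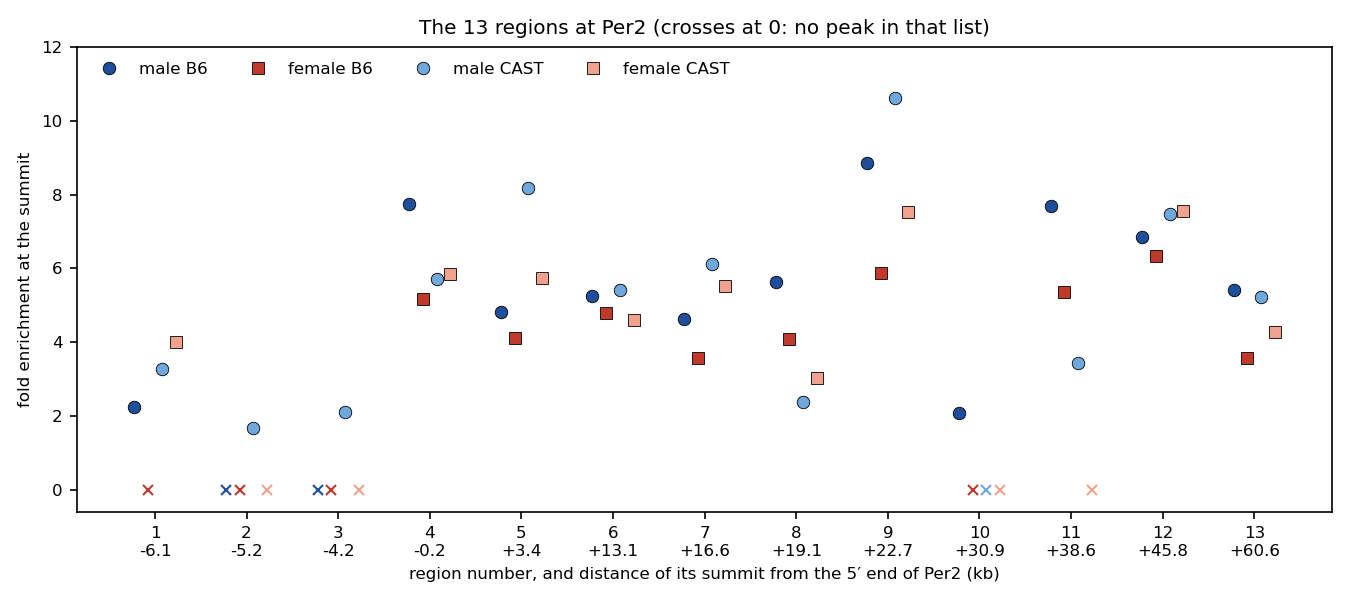
Fold enrichment at the summit of the 13 DHS regions at Per2 in the 4 peak lists, with the region number and its distance from the 5′ end of the gene (kb) on the horizontal axis; crosses at 0 stand for no peak in that list. Regions 8 and 11 were higher in both B6 lists than in CAST, and region 5 was higher in both CAST lists.

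The counting error of the summit values left the strain difference in males apart at Per2 regions 8, 11 and 5, but not at region 1. With the background held fixed, exact Poisson 95% intervals for Per2 region 8 were 5.09 to 6.21 in male B6 and 1.98 to 2.83 in male CAST. In females they were 3.44 to 4.81 in B6 and 2.35 to 3.84 in CAST, which overlapped. At region 11 they were 6.72 to 8.79 in male B6 and 2.64 to 4.39 in male CAST. Region 5 had 4.31 to 5.38 in male B6 and 7.48 to 8.93 in male CAST. At region 1 the intervals overlapped, with 1.63 to 2.98 in male B6 and 2.54 to 4.12 in male CAST. These intervals cover counting error in the pooled reads and not the difference between animals. The regions were also picked for the size of their strain ratios in males, from the same values. The intervals are therefore no separate evidence of a difference.

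The Cry genes encode the partners of the PER proteins. The Cry1 promoter, region 2 (chr10:84647540-84648407), had 9.68 and 7.07 in B6 males and females and 10.3 and 9.29 in CAST males and females. The upstream region 1 of Cry1 had 5.61, 4.27, 6.50 and 5.01. Region 3 (chr10:84624239-84624941), in an intron, was in both male lists, at 3.05 for B6 and 2.80 for CAST, but neither female list. It is the region with 2 ROR elements printed above, which lay −78 and −27 bp from the male B6 summit. In male CAST the summit lay 135 bp away, and neither element fell within 150 bp of it. Cry2, the paralog of Cry1, had a less open promoter. Region 3 (chr2:92273887-92274731) had 5.40, 4.63, 4.78 and 4.40 in the order of lists used above. The strongest Cry2 region outside a promoter was intronic region 6, inside D930015M05Rik as well, with 4.58, 3.73, 4.15 and 4.09. Downstream of Cry2 and inside Mapk8ip1, region 8 (chr2:92229515-92229973) was in both male lists, at 2.58 for B6 and 2.53 for CAST, but neither female list.

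The 3 regions of males named above, at Arntl, Cry1 and Cry2, made up 4.76% of the 63, below the 9.38% of all regions that showed this pattern. Their fold enrichments were 2.23 to 3.05. With lists of equal size, by −log10 q or by fold enrichment, 0 clock gene regions had this pattern. The share of all regions with it was not computed under these settings. Whether the fall was particular to the clock genes therefore cannot be said. The reverse pattern, both female lists but neither male list, was held by 0 clock gene regions and by 0.0622% of all regions. Similarly 0 were in both CAST lists but neither B6 list, against 3.62%. When depth was matched over the lists, 2 regions had the pattern of both males, against 3 in the lists as deposited. The share of all regions with matched depth was likewise not computed.

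The Nr1d genes encode the REV-ERB repressors. Nr1d1 had 8 regions over a gene of 7402 bp and 20 kb on either side, and 7 of them were in all 4 lists. Its promoter, region 5 (chr11:98636141-98637175), had 9.42 and 7.12 in B6 males and females and 9.16 and 8.34 in CAST males and females. The intronic region 6 (chr11:98634981-98635608), with 2 E-boxes and a D-box, was the strongest Nr1d1 region outside a promoter, with 7.06, 6.70, 7.29 and 7.67 in the same order, and both CAST values were above both B6 values. Relative to the median of all shared regions the order was the other way, with a B6 to CAST ratio of 1.02 in males and 1.04 in females. In reads at the summit, the Nr1d1 promoter was the highest of the 63 regions, with 1073 and 397 in B6 males and females and 875 and 311 in CAST males and females, compared with 503, 252, 474 and 160 at Arntl. Fold enrichment orders these promoters differently, since it divides by a background that MACS2 also takes from the surrounding region. Of the regions upstream of Nr1d1, region 4 at −8132 bp had 6.01, 4.31, 7.06 and 5.75, and its summits lay within 9 bp of each other. Nr1d2 had 1 region, over its 5′ end (chr14:19070654-19072092), with 7.61, 6.57, 8.12 and 7.26. In female B6 its summit lay 765 bp from the farthest of the other summits. Over the 36 regions in all 4 lists the median distance between the outermost summits was 75 bp, and over all 18309 such regions it was 91 bp.

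Motif matches were counted within 150 bp of each summit, on both strands, and compared with all peaks of the same list. In male B6, 9 of 55 clock gene regions (16.4%) held an E-box, against 7.82% of all peaks and 9.91% of peaks within 1 kb of a start. They lay at Nr1d1 (4 regions, of which region 8 is inside Thra), Per1 (2), Cry1, Cry2 and Nr1d2. A D-box in the form TTATGTAA was in 5 of 55 (9.09%), against 1.65% of all peaks and 0.635% of those near a start, and these 5 were 2 regions of Per2 and 1 each of Per3, Nr1d1 and Nr1d2. The form TTACGTAA was in 0 of 55. E-prime boxes were in 4 of 55 (7.27%), against 5.20% of all peaks and 6.02% of those near a start. In the other lists the share with an E-prime box was 11.6% in B6 females, against 5.45%, and 13% and 12.5% in CAST males and females, against 5.23% and 5.45%. ROR elements were in 3 of 55 (5.45%) in male B6, against 3.65%, but in the other lists the share was below that of all peaks, at 2.33% against 3.53%, 0 of 46 against 3.72%, and 2.5% against 3.43%. The cAMP response element TGACGTCA was in 1 of 55 (1.82%) in male B6, at Per3 region 1, against 1.27% of all peaks and 2.79% of those near a start. The short form TGACG, which the full element contains, was in 11 of 55 (20%), against 18.6% and 30.5%. In the other lists the share of clock gene regions with an E-box was 18.6% for the females of B6, and 15.2% and 20% for the males and females of CAST. The share with the first D-box form was 9.30%, 10.9% and 12.5%, against 1.41%, 1.65% and 1.67% of all peaks. These are the same genes seen in 4 lists and not independent counts, the CAST windows were read from the B6 reference sequence, and no difference was tested.

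**Figure D4:**
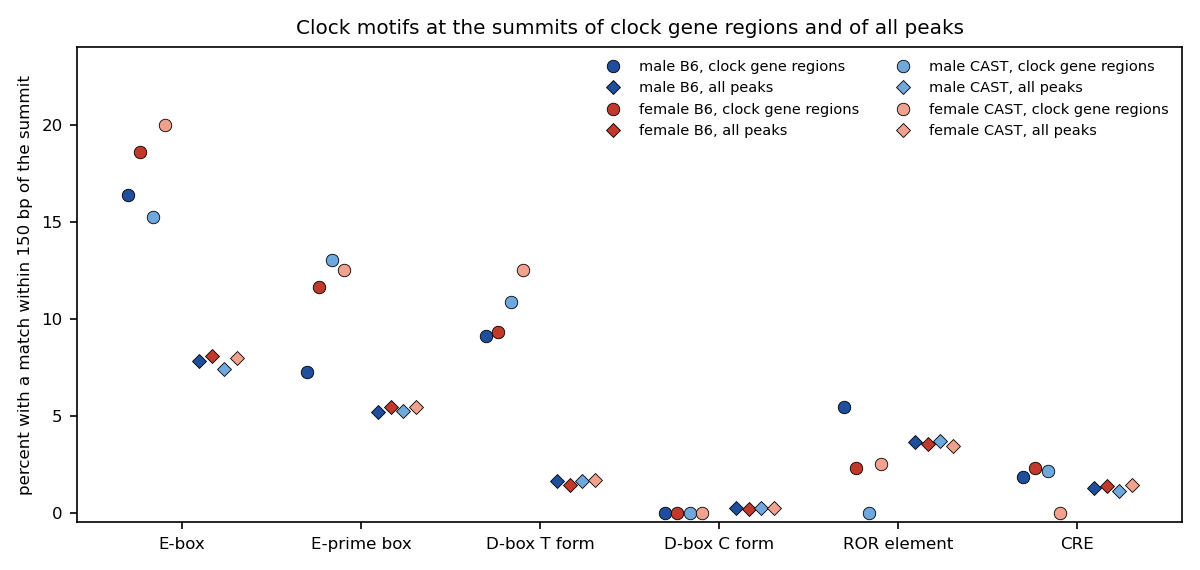
Percentage of DHS with a motif match within 150 bp of the summit (vertical axis), for clock gene regions (circles, left of each pair) and for all peaks (diamonds, right), with 1 colour for each peak list. In each list the circles for the E-box (15.2% to 20%) lay above the diamonds (7.40% to 8.06%), as did those for the first D-box form.

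Fold enrichment was then compared between the sexes at regions that both lists held. Over all shared regions the male list was higher, by a median of 1.32 times in B6 and 1.19 times in CAST, so ratios were divided by this median, and a region was called when the centred ratio reached 1.5 times. In B6, 0 of 40 clock gene regions were called higher in males, against 2.62% of all regions, and 0 of 40 higher in females, against 2.6%. In CAST, 0 of 37 were called higher in males, against 3.31%, and 1 of 37 higher in females, against 2.56%. The median centred log2 ratio of male over female was −0.04 at the clock genes in B6 and −0.11 in CAST. Without centring these medians were 0.36 and 0.15, and 8 of 40 regions in B6 were at least 1.5 times as high in males, against 24.3% of all regions.

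The largest centred sex ratios were small. In B6, Npas2 region 6, at the start of the ribosomal protein gene Rpl31, was 1.34 times as high in males, and Per1 region 5 was 1.39 times as high in females. Per3 region 2, the promoter, and Arntl region 7 followed in males at 1.20 and 1.18 times, and Per1 region 4 and Cry2 region 2 followed in females, at 1.30 and 1.28 times, although without centring both were slightly higher in males, by 1.01 and 1.03 times. In CAST, Arntl region 7 was 1.36, Npas2 region 2 was 1.24 and Per2 region 5 was 1.20 times as high in males. The region called higher in CAST females was Per2 region 8, by 1.52 times, and Per2 region 1 and Nr1d1 region 2 came next at 1.46 and 1.33 times. With ratios centred within 10 classes of mean level, an alternative chosen after the data were seen, Per2 region 8 was 1.26 times as high in CAST females and was no longer called. Without centring it was 1.28 times as high there and was not called. Its Poisson 95% intervals overlapped, at 1.98 to 2.83 in male CAST and 2.35 to 3.84 in female CAST.

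The strains were compared in the same way within each sex. The B6 list was 0.947 times the CAST list in the median over shared regions in males, and 0.842 times in females. In males, 2 of 43 clock gene regions (4.65%) were called higher in B6, against 4.49% of all regions, and 1 of 43 (2.33%) higher in CAST, against 6.68%. In females, 2 of 36 (5.56%) were called higher in B6, against 3.42%, and 0 of 36 higher in CAST, against 4.97%. Each of these shares rests on 2 regions or fewer. The median centred log2 ratio of B6 over CAST was 0.06 in males and 0.04 in females, and without centring it was −0.02 and −0.20.

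Per2 held the called strain differences in males. Region 8 was 2.50 times and region 11 was 2.37 times as high in male B6, above 99.7% and 99.6% of all shared regions, and region 5 was 1.61 times as high in male CAST. The Per2 promoter was 1.43 times as high in male B6. After region 5, those highest in male CAST were Per2 region 1 and Nr1d1 region 8, at 1.39 and 1.27 times. In females, region 8 of Per2 was 1.60 times and the promoter of Npas2 was 1.57 times as high in B6, and Arntl region 7 was 1.41 times as high. Without centring, the first pair were 1.35 and 1.32 times as high in B6. Those highest in female CAST were Cry2 region 4, Per2 region 7 and the Per3 promoter, at 1.38, 1.30 and 1.29 times. Without centring these 3 were 1.64, 1.55 and 1.53 times as high in CAST and would be called, whereas 0 regions would be called higher in female B6. Per2 region 8 was thus higher in B6 in both sexes, whereas Per2 region 5 was 1.18 times as high in CAST in females and was not called there.

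**Figure D5:**
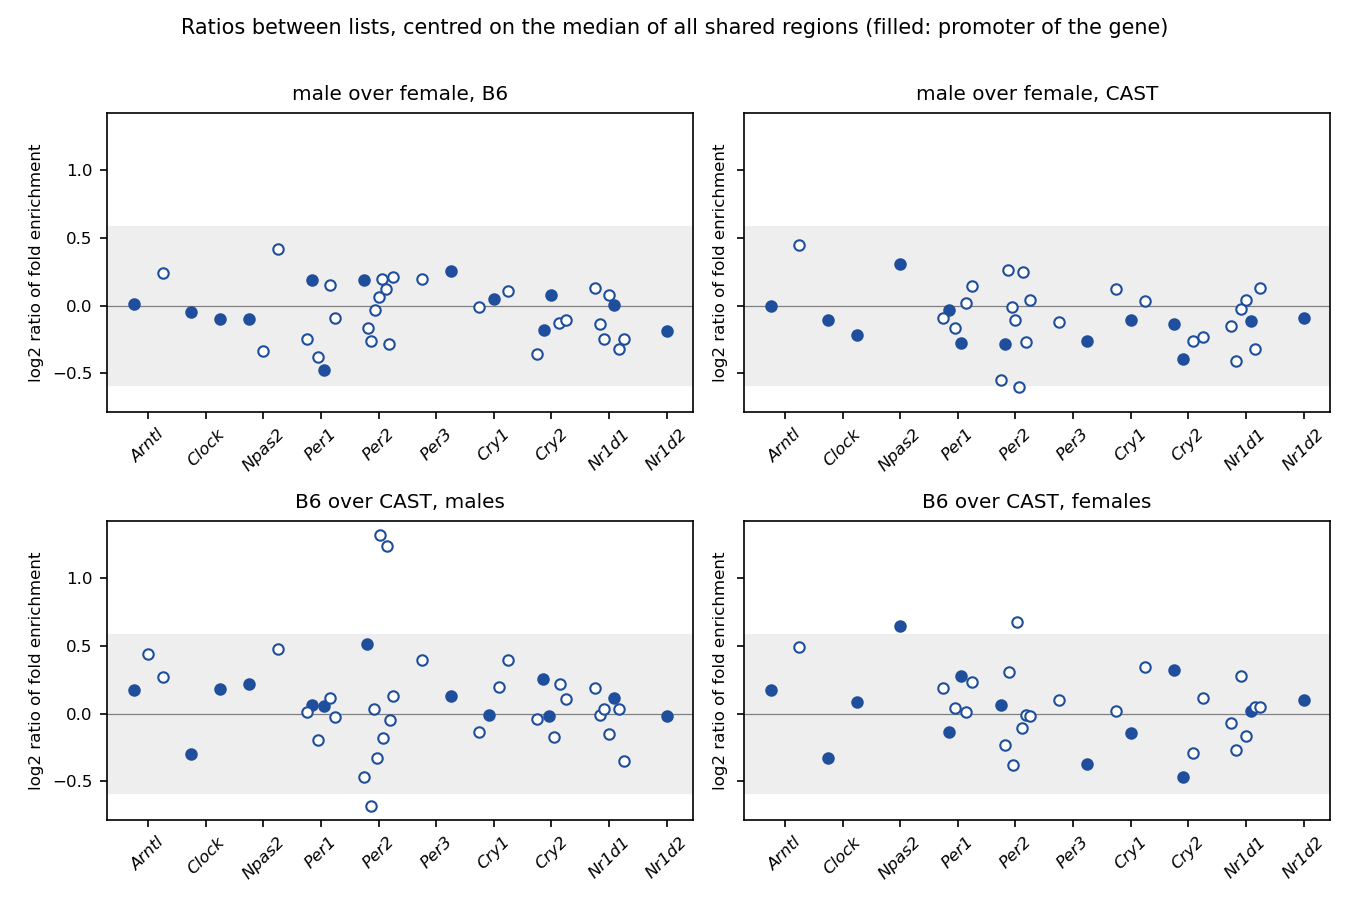
Centred log2 ratios of fold enrichment (vertical axis) at clock gene regions that both lists of a comparison held, by gene, with filled points for promoters of the gene and the grey band for ratios under 1.5 times. In males the points above the band are Per2 regions 8 and 11, at 1.32 and 1.24, and no point left the band in the B6 sex comparison.

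Beyond the core loop, 18 further genes of the clock pathway were examined in the same way. They held 147 regions, of which 73 (49.7%) were in all 4 lists, against 35.6% of all regions. Male-only in both strains were 11 (7.48%), against 9.38%, and female-only in both were 0, against 0.0622%. B6-only in both sexes were 2 (1.36%), against 3.32%, and CAST-only in both were 3 (2.04%), against 3.62%. Promoters of 16 of the 18 were in all 4 lists. The exceptions were Rorb, a nuclear receptor gene whose promoter region was in male B6 and female CAST, and Csnk1e, a kinase of the PER proteins, which had no promoter region by this definition. Rora, which encodes a receptor that activates through ROR elements, had 45 regions, 5 of which were male-only in both strains. For the D-box factors, Hlf had 13 regions, Tef 10, Dbp 6 and Nfil3 4, with 8, 6, 5 and 3 of them in all 4 lists. Among E-box repressors, Bhlhe40 had 4 regions and Bhlhe41 had 2, with 2 of each in all 4 lists.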

How the data were processed

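DNase-seq was done on liver nuclei of the 16 libraries, which the labels place in 4 groups. The authors used Bowtie2 and kept reads with a unique position, in mm9 for B6 and in mm9 carrying the known CAST variants for CAST, converted CAST coordinates back to mm9, pooled the libraries of each group and called peaks with MACS2. Blacklisted regions and peaks of duplicate reads were removed, per the study's methods. Column 7 of the deposited lists is a ratio, the fold enrichment of the summit pileup over background. The deposited −log10 p-value scores each summit pileup against its background. A deposited −log10 q-value was used as a score to order and filter peaks, and another deposited column gives the summit offset. There is 1 list per group, so no group comparison was tested.

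Peaks were joined at 1 bp of overlap. Genes and starts came from the GENCODE annotation of mm9 (22380 protein-coding genes), and a promoter ran from 1 kb upstream to 500 bp downstream of an annotated start. Summit pileups were recovered from fold enrichment and p-value, and were within 0.02 of a whole number for 99.9% of male B6 peaks. Ratios were centred on the median of all shared regions. Regions named were the promoter and the highest other region of each gene, regions in both lists of a sex or strain alone, and the 3 largest ratios in each direction. Joining, recovery and centring were tested on simulated data. Alternatives were gene windows of 10 and 50 kb, joining at 50% overlap, a higher threshold, lists of equal size, matched depth, ratios not centred, and excess over background. The genes, lists and motifs were chosen with earlier results of these data known. Promoter sequence of Per2 is not reported here. Analyses used Python 3.11.15, pandas 2.3.3 and scipy 1.17.1.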

Additional observations from a re-analysis of the deposited data

Results flagged for a closer look

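For 3 regions named in the sex comparison, the ratio of male to female fold enrichment lay on opposite sides of 1 in the 2 strains, as deposited and without centring. Per2 region 8 had a ratio of 1.38 in B6 and 0.784 in CAST. Nr1d1 region 2 had 1.20 in B6 and 0.894 in CAST. Per3 region 2, the promoter, had 1.58 in B6 and 0.995 in CAST. Relative to the median of all shared regions, Nr1d1 region 2 had 0.911 in B6 and 0.751 in CAST, both below 1, while Per2 region 8 had 1.05 and 0.659, and Per3 region 2 had 1.20 and 0.836. These 3 do not stand apart by this pattern. As deposited it was held by 8 of the 36 clock gene regions in all 4 lists (22.2%), against 16.4% of all such regions, and after centring by 15 of 36 (41.7%), against 42.2%. The difference between the strains was not tested, since each value is the ratio of 2 pooled lists.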

How the results depend on the processing

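Of 128 values recomputed for 19 results, 95 kept their direction and stayed close to the value reported (counts within 1.5 times, medians within 0.1, and the share in all 4 lists within its Wilson interval of 44.9% to 68.6%), 29 moved and 4 medians changed sign. Regions that were male-only in both strains fell from 3 to 0 with lists of equal size by −log10 q and by fold enrichment. Regions in a single list, 18 as reported, were 3 of 37 under the stricter threshold (−log10 q of at least 15.7), 9 of 49 with lists of equal size by −log10 q and 10 of 50 by fold enrichment, against 27.8%, 25.7% and 27.2% of all regions. Equal size by −log10 q gave 69.4% in all 4 lists. The pattern of both B6 lists alone, 1 region as reported, was 2 under the stricter threshold and 0 when an overlap of 50% was required and with either equal size. The patterns of both CAST lists alone and of both female lists alone were 0 as reported. Each was 1 with that overlap and with equal size by fold enrichment. With equal size by −log10 q the CAST count was 1. The share of all regions with a sex-only or strain-only pattern was not computed under these settings, so these counts have no comparison.

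Without centring, the medians changed sign, to 0.36 (male over female B6), 0.15 (male over female CAST), −0.019 (B6 over CAST males) and −0.20 (B6 over CAST females), because the median of all shared regions was no longer set to 0. The counts were then 8 of 40 for male over female B6 (24.3% of all regions), 1 of 37 for male and 0 for female in CAST (12.5% and 0.395%), and 0 of 36 for B6 and 3 for CAST in females (0.823% and 15%). Measured as excess over background, 1 region was called in each direction in B6 (6.49% of all regions for males, 6.68% for females) and 2 higher in CAST females (6.60%), 5 were higher in B6 males (9.08%), 2 in CAST males (11.8%) and 1 in CAST females against B6 (10.2%), so the shares over all regions rose too. With the 50 kb window 1 region was higher in CAST males than females, and with centring within 10 classes of level, chosen after the data were seen, 0 were higher in CAST females. The cause of these changes was not tested where not stated. No replicate could be left out and no paired analysis was possible because each group is 1 pooled peak list. The female CAST list was the shallowest, with a background of 7.94 reads. With depth matched over the lists, 15 of 59 regions were in a single list, against 31.3% of all regions. Under that setting 2 were male-only in both strains, and the share of all regions with this pattern was not computed.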

Other observations

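Promoter values of output genes of the loop were also read off. The promoter of Tef, a D-box activator, had 9.64 and 8.06 in B6 males and females and 9.31 and 9.34 in CAST males and females. The promoter of Gm129, which encodes the clock repressor CIART, had 9.98, 6.94, 9.43 and 8.5 in the same order. Dbp, a strongly rhythmic D-box activator in liver, stood lower at 5.55, 3.49, 6.02 and 5.40. The promoter of Bhlhe41, an E-box repressor, had 7.14 and 4.03 in B6 and 4.77 and 3.37 in CAST, so that male B6 was the highest of the lists. No difference was tested here.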
